A study of Rattus norvegicus with 6 samples.

Results

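The insulin-like growth factor (IGF) genes read here were the ligand gene Igf1, the receptor gene Igf1r, the receptor's adaptor genes Irs1 and Irs2, and the binding protein genes Igfbp2, Igfbp3, Igfbp4, Igfbp5, Igfbp6 and Igfbp7. They were found by symbol among the 33565 rows of the gene count table. All 10 had a single row, and all 10 were among the 15075 genes that passed the filter on low counts. They were measured by RNA-seq in primary heart cells of 7-day-old Sprague-Dawley rats, labelled as cardiomyocytes and kept in medium with 10% fetal bovine serum. The cells of the 3 control samples received vehicle and those of the 3 progesterone samples received 100 nM progesterone, each for 24 h, so that serum, a source of IGFs, was present in both groups. The labels call the 3 samples of a group biological replicates. No label says that they are separate animals or cultures, and the p-values therefore reflect only how far these samples spread, which may be technical.

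IGF1 is a secreted peptide that binds the IGF1 receptor, a tyrosine kinase of the cell surface, which recruits the adaptors IRS1 and IRS2 and through them activates the PI3 kinase and AKT pathway. In the heart this pathway is known for growth of the postnatal myocardium and survival of cardiomyocytes. Most IGF outside cells is held by binding proteins, which carry it, keep it from the receptor or release it when proteases cut them. IGFBP7 binds IGFs only weakly.

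The libraries held 21156793 to 25376220 counts. All 11 matched cardiomyocyte markers had counts, with summed levels of 5669 to 5852 FPKM (fragments scaled by gene length and by the total of the library) in the controls and 4910 to 5358 FPKM with progesterone. The fibroblast markers of the same kind of list summed to 6277 to 6737 and 8261 to 8858 FPKM. Col1a1, Col3a1 and Postn, each with a higher mean with progesterone, held most of that sum. Of the 10 tested fibroblast markers 5 rose and 3 fell, so the sum does not stand for the whole list. In such bulk samples, fewer cells of a type and less RNA per cell cannot be told apart. All 13 genes of an interferon response list fell with progesterone, from summed levels of 5009 to 5194 FPKM to 19.0 to 21.5 FPKM, and all 6 of a proliferation list rose (86.96 to 101 against 253 to 261 FPKM). The part of these states in the results below was not tested.

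The progesterone samples had a different set of IGF binding protein mRNAs, more of the ligand mRNA and little difference in receptor mRNA. Igfbp2 and Igfbp5 rose 7.82-fold and 6.51-fold, Igfbp3 and Igfbp6 fell 4.74-fold and 2.73-fold, and Igf1, Igfbp4, Irs2 and Igfbp7 rose by 1.56-fold, 1.75-fold, 1.23-fold and 1.16-fold. Igf1r and Irs1 did not pass the test. In all, 8 of the 10 genes passed an adjusted p of 0.05, 6 of them higher and 2 lower with progesterone, where 63.0% of all genes tested passed (31.2% higher and 31.8% lower). A share of 8 in 10 is thus close to the background of this comparison. A change of at least 2-fold was seen in 4 of the 10, all binding protein genes, against 16.5% of all genes tested: 2 were higher (7.14% of all genes) and 2 lower (9.31% of all genes) by that much. The groups did not overlap in 8 of the 10, against 68.6% of all genes. With upper quartile scaling 60.1% of all changed genes were higher, against 49.6% with the TMM scaling used here, the median over all genes moved from 0.00 to 0.10 on the log2 scale, and the 2 members that had not passed then did.

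**Figure D1:**
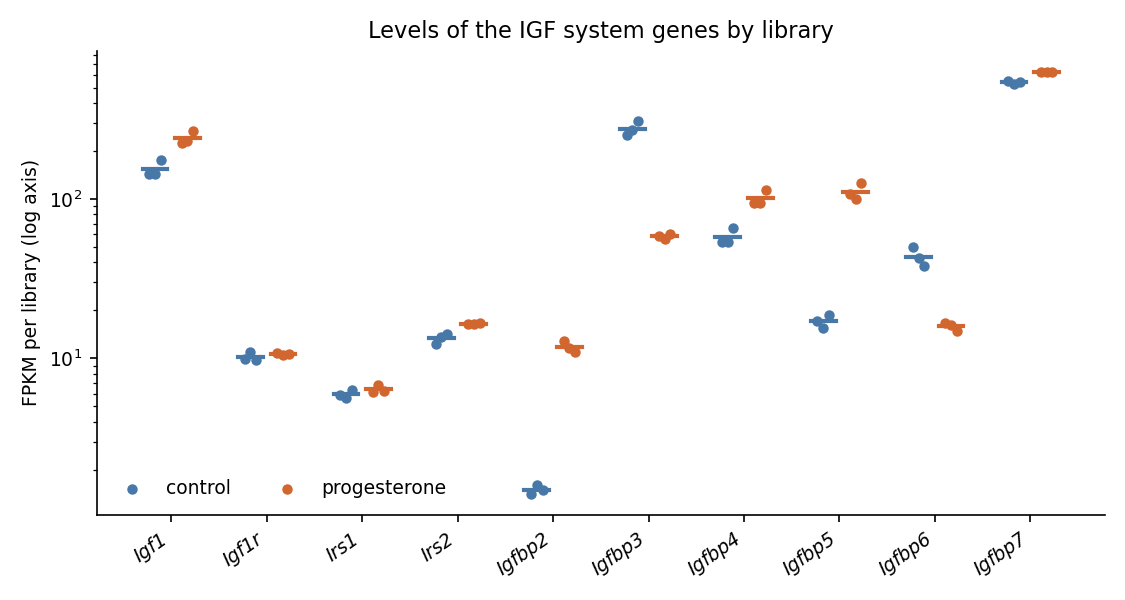
Level of each IGF system gene in FPKM on a log axis, with 1 point per library (3 control, 3 progesterone) and a bar at each group mean. Igfbp2 and Igfbp5 sit higher and Igfbp3 and Igfbp6 lower in every progesterone library, while the points of Igf1r and Irs1 overlap between groups.

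**Figure D2:**
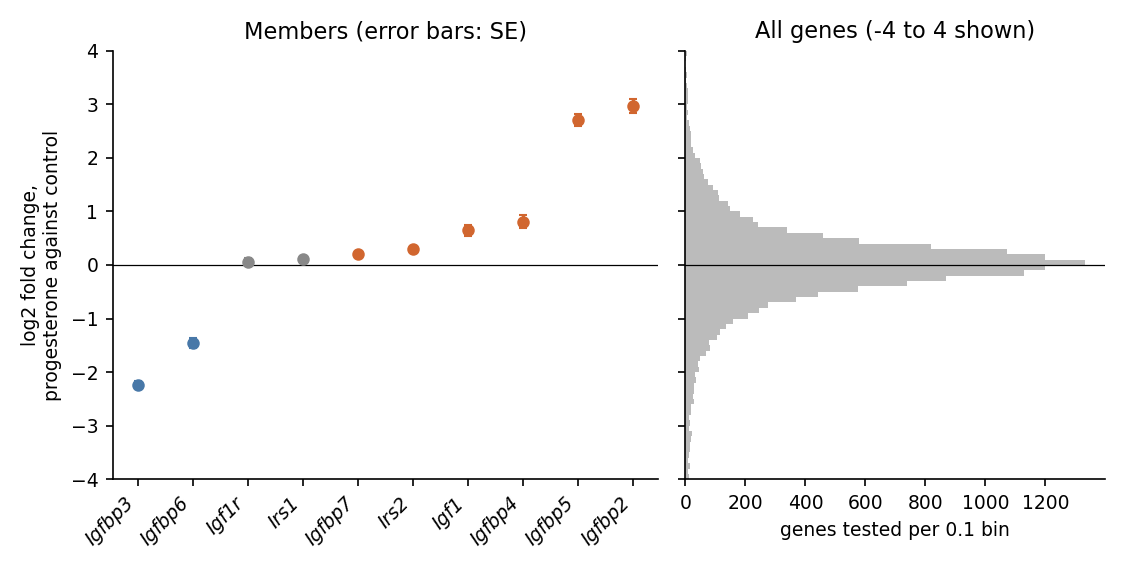
Log2 fold change of each gene, progesterone against control, with its SE (left; orange higher, blue lower, grey not passed), beside the distribution of the log2 fold changes of all genes tested that lie between -4 and 4 (right). The genes run from -2.24 for Igfbp3 to 2.97 for Igfbp2.

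Levels can be compared between genes only per length, on the FPKM scale that the authors deposited. In the controls the order was Igfbp7 (542 ± 11.2 FPKM, SD, n = 3), Igfbp3 (276 ± 28.3), Igf1 (154 ± 19.0), Igfbp4 (57.6 ± 6.91), Igfbp6 (43.4 ± 6.01), Igfbp5 (17.1 ± 1.59), Irs2 (13.4 ± 0.984), Igf1r (10.2 ± 0.633), Irs1 (5.95 ± 0.332) and Igfbp2 (1.50 ± 0.0943). No neighbours in that order overlapped across the 3 libraries. With progesterone Igfbp7 was again highest (626 ± 3.27 FPKM), followed by Igf1 (241 ± 22.4), Igfbp5 (111 ± 13.6), Igfbp4 (101 ± 11.2), Igfbp3 (58.2 ± 2.20), Irs2 (16.5 ± 0.172), Igfbp6 (15.9 ± 0.877), Igfbp2 (11.8 ± 1.00), Igf1r (10.7 ± 0.138) and Irs1 (6.41 ± 0.358). There the libraries of Igfbp5 and Igfbp4 overlapped, as did those of Irs2 and Igfbp6, so neither pair can be ordered. Igfbp3 moved from the second place to the fifth, Igfbp5 from the sixth to the third, and Igfbp2 from the last place to the eighth.

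Igf1, the ligand gene, lies on chromosome 7 (28412198 to 28486609, plus strand; gene coordinates here are those of the count table, whose rat build is not named). Its level was 143, 144 and 176 FPKM in control replicates 1 to 3 and 225, 231 and 267 FPKM in progesterone replicates 1 to 3. Every progesterone library was above every control library, and replicate 3 was the highest of each group. The log2 fold change was 0.64 ± 0.11 (SE), with an adjusted p of 0.0033. Relative to the receptor mRNA, Igf1 was at 15.1 ± 2.48 times the level of Igf1r per length in the controls and at 22.5 ± 2.10 times with progesterone (SD, n = 3).

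Igf1r, which encodes the receptor tyrosine kinase, lies on chromosome 1 (128924966 to 129206516, plus strand). It was read at 9.92, 11.0 and 9.84 FPKM in the controls and at 10.8, 10.6 and 10.7 FPKM with progesterone. The progesterone libraries fell inside the range of the controls. The difference of 0.06 ± 0.06 on the log2 scale did not pass (adjusted p = 0.35), although it did with upper quartile scaling (0.16, adjusted p = 0.024). Between 926 and 1054 counts per control library lay behind these values.

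The adaptor genes Irs1 and Irs2 encode docking proteins that the active receptor phosphorylates. Irs2, on chromosome 16 (83824430 to 83848684, plus strand), was at 12.4, 13.6 and 14.3 FPKM in the controls and at 16.4, 16.4 and 16.7 FPKM with progesterone. Its groups did not overlap, and the progesterone libraries were nearly alike. Irs2 rose by a log2 fold change of 0.30 ± 0.05 (adjusted p = 0.00012). Irs1, on chromosome 9 (88033668 to 88086488, minus strand), was at 5.86, 5.67 and 6.32 FPKM in the controls and at 6.15, 6.82 and 6.27 FPKM with progesterone, which overlap. Its log2 fold change of 0.11 ± 0.07 did not pass (adjusted p = 0.16), and it too passed with upper quartile scaling (0.21, adjusted p = 0.011). Irs2 was read at 2.26 ± 0.145 times the level of Irs1 per length in the controls and at 2.58 ± 0.155 times with progesterone, and those ratios met at 2.40 in replicate 2 of both groups.

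Igfbp2 and Igfbp5 were the genes of the set that rose most, and they are neighbours. IGFBP2 is a binding protein with an integrin-binding sequence, and IGFBP5 binds extracellular matrix and is known from smooth muscle, bone and fibrotic tissue. Igfbp2 (chromosome 9, 80118029 to 80144789, plus strand) and Igfbp5 (80150211 to 80167033, minus strand) point towards each other with 5421 bases between their ends. The count table has no overlap between the pair, and no label gives the strand setting used for counting.

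Igfbp2 was near the bottom of the set in the controls, at 1.41, 1.60 and 1.50 FPKM, and was at 12.9, 11.6 and 10.9 FPKM with progesterone. Every progesterone library was far above every control library. These levels rest on 138 counts over the controls and 989 over the progesterone libraries. Its log2 fold change was 2.97 ± 0.13 (adjusted p = 2.02e-11). On the log2(FPKM + 1) scale, which understates changes of low genes, it was 2.35.

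Igfbp5 was at 17.1, 15.6 and 18.7 FPKM in the controls and at 108, 99.9 and 126 FPKM with progesterone. The groups were far apart, and replicate 3 was the highest of each. The log2 fold change was 2.70 ± 0.12 (adjusted p = 4.17e-06). Although both genes rose by similar folds, Igfbp5 stayed at 11.5 ± 1.51 times the level of Igfbp2 per length in the controls and 9.55 ± 1.78 times with progesterone.

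Within 500 kb of Igfbp2, a window chosen after the values were seen, 4 other genes besides Igfbp5 were tested. None of them changed by 2-fold, where 16.5% of all genes tested did, so so few genes say little about the region. In the same window 3 of 4 tested genes changed by 2-fold around Igf1r and 2 of 4 around Igfbp3. The counts were 6 of 18 around Igfbp4, 2 of 22 around Igfbp6 and 1 of 6 around Igf1. None did around Irs1, Irs2 and Igfbp7. Rpl37a, a ribosomal protein gene, rose with a log2 fold change of 0.23, and Smarcal1, a DNA repair helicase gene, did not pass at 0.03. Xrcc5, which encodes a DNA end-binding protein, and Pecr, a peroxisomal reductase gene, fell by 0.32 and 0.39 on the log2 scale.

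**Figure D3:**
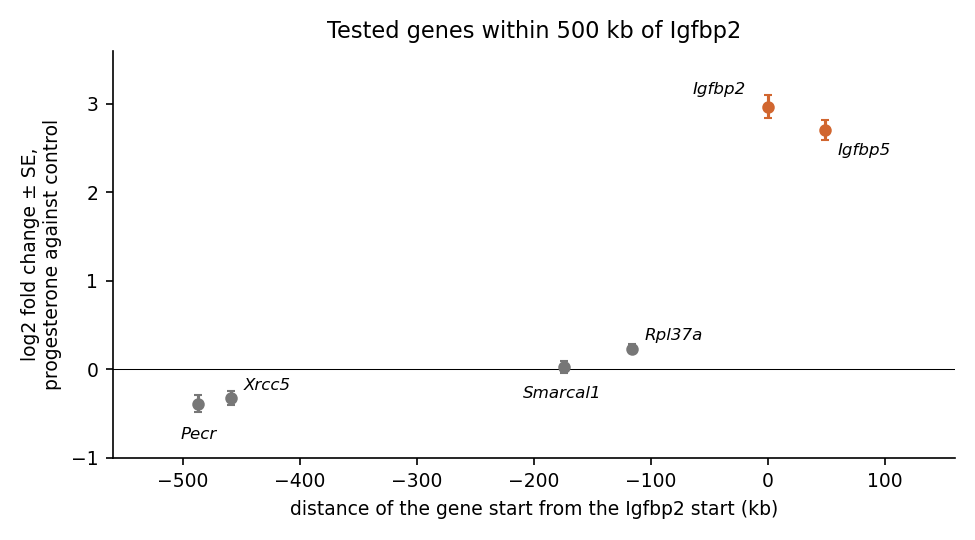
Log2 fold change with its SE, progesterone against control, for the tested genes within 500 kb of Igfbp2, plotted by the distance of each gene's start from the start of Igfbp2 in kb. Igfbp2 and Igfbp5 (orange) lie near 3 while the other 4 genes (grey) lie between -0.39 and 0.23.

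The promoters of the 4 genes that changed by at least 2-fold are shown because they move in opposite directions, Igfbp2 and Igfbp5 up and Igfbp3 and Igfbp6 down. Each window runs from 250 bases before to 50 bases after the RefSeq start of the gene on build GRCr8, 5′ to 3′ on the gene's strand: chr9:81864561-81864860 (plus) for Igfbp2, chr9:81914138-81914437 (minus) for Igfbp5, chr14:86277895-86278194 (minus) for Igfbp3 and chr7:135154669-135154968 (plus) for Igfbp6. Capitals mark matches, on either strand, to any of the motifs searched.
Igfbp2: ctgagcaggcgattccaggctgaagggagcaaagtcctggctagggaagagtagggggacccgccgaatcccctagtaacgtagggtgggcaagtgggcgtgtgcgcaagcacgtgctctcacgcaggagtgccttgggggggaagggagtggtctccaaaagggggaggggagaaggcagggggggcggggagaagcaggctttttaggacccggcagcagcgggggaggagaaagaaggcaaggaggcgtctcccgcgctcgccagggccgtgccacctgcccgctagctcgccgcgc
Igfbp5: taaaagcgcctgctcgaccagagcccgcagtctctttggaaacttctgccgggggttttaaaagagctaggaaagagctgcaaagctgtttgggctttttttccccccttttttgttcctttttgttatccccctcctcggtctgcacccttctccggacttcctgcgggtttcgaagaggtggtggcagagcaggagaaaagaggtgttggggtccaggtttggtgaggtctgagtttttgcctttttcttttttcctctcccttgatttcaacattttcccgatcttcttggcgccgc
Igfbp3: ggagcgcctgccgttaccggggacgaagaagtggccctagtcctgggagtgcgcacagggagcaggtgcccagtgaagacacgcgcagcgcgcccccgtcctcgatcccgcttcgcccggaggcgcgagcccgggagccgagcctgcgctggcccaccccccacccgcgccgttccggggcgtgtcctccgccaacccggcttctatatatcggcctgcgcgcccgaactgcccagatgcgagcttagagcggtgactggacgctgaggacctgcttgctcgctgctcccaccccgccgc
Igfbp6: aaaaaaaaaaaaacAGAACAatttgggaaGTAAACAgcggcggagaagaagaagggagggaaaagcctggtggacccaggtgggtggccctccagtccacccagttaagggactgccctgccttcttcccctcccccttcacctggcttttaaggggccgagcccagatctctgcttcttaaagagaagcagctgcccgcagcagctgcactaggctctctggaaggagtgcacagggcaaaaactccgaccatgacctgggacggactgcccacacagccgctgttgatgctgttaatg

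Promoter windows were found for 9 of the 10 genes. The motifs were GGAATG (bound by the TEAD partners of YAP), AGAACA (a half-site of the progesterone and glucocorticoid receptors), TGTTTAC (FOXO factors), GAAANNGAA (the core of the interferon-stimulated response element) and TTCNNNGAA (STAT factors), each sought on both strands. No window of the 9 held GGAATG, GAAANNGAA or TTCNNNGAA, which were in 14.2%, 9.71% and 8.87% of all 33469 promoter windows of this length. AGAACA was in 2 of the 9 windows, those of Igfbp6 and Igf1, and in 20.7% of all windows. TGTTTAC was in the window of Igfbp6 and in 3.78% of all windows. In Igfbp6 the matches lie at -236 and -221 relative to the start, and in Igf1 the half-site lies at -55. A match is a description of the letters, not a bound site, and no match says only that the letters are not in this window.

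The other binding protein genes that rose were Igfbp4 and Igfbp7. IGFBP4 inhibits IGF action and is inactivated when the protease PAPP-A cuts it. Igfbp4 (chromosome 10, 86950557 to 86962578, plus strand) was at 53.5, 53.8 and 65.6 FPKM in the controls and at 94.0, 94.6 and 114 FPKM with progesterone. The groups did not overlap, and replicate 3 was the highest in each. The log2 fold change was 0.81 ± 0.12 (adjusted p = 0.0021).

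Igfbp7, also known as a matrix protein of vessels and of senescent cells, lies on chromosome 14 (33010300 to 33070190, plus strand). Relative to its level it had the least spread of the set (CV 2.06% in the controls and 0.523% with progesterone), at 551, 530 and 545 FPKM in the controls and 622, 628 and 628 FPKM with progesterone. Its log2 fold change was 0.21 ± 0.04 (adjusted p = 0.00024), the smallest of the changes that passed. The row of Igfbp7 overlaps that of Polr2b, an RNA polymerase II subunit gene on the other strand, by 113 bases, and reads of that stretch may not be separable. Polr2b had a log2 fold change of 0.31 ± 0.04. The short gene LOC103693375, also on the other strand, lies wholly within Igfbp7 and had 225 counts over the controls and 266 with progesterone.

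Igfbp3 and Igfbp6 fell. IGFBP3 is the main carrier of IGFs in blood and is also a secreted growth inhibitor, and IGFBP6 binds IGF2 in preference to IGF1. Igfbp3 (chromosome 14, 87457647 to 87465374, minus strand) was at 251, 271 and 307 FPKM in the controls and at 58.3, 56.0 and 60.4 FPKM with progesterone. The groups were far apart, and the controls spread more than the progesterone libraries. The log2 fold change was -2.24 ± 0.07 (adjusted p = 4.09e-10). Igfbp1, whose row lies 3861 bases from that of Igfbp3, had 3 counts over the controls and 4 over the progesterone libraries and was too low to be tested.

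Igfbp6 (chromosome 7, 143749221 to 143754054, plus strand) was at 49.9, 42.4 and 38.0 FPKM in the controls and at 16.6, 16.2 and 14.9 FPKM with progesterone. All progesterone libraries were below all controls. Among its control libraries the highest was 1.31 times the lowest, the widest such ratio in the set, and replicate 3 was the lowest of each group. The log2 fold change was -1.45 ± 0.09 (adjusted p = 3.31e-08).

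Summed over Igfbp2 to Igfbp7, binding protein mRNA was at 924, 914 and 976 FPKM in the controls and at 912, 906 and 954 FPKM with progesterone, so the groups overlapped while the make-up changed. Without Igfbp7, the weak binder, the sum was 373, 385 and 431 FPKM in the controls and 290, 278 and 326 FPKM with progesterone, which do not overlap. Of that smaller pool Igfbp3 made up 69.7% ± 2.11 in the controls and 19.6% ± 0.938 with progesterone (SD, n = 3). Igfbp5 made up 4.33% ± 0.276 and 37.3% ± 1.41, and Igfbp4 14.5% ± 0.644 and 33.8% ± 1.24. The ratio of Igfbp3 to Igfbp5 was 14.6, 17.4 and 16.4 in the control libraries and 0.540, 0.560 and 0.477 in the progesterone libraries. Of the whole pool with Igfbp7, Igfbp3 made up 29.4% ± 2.17 in the controls and 6.30% ± 0.112 with progesterone, Igfbp5 1.83% ± 0.112 and 12.04% ± 1.12, and Igfbp7 57.8% ± 1.90 and 67.8% ± 1.79. Per 100 FPKM of the smaller pool there were 38.9 ± 1.81 FPKM of Igf1 in the controls and 80.8 ± 2.76 FPKM with progesterone, and per 100 FPKM of the whole pool 16.4 ± 1.43 and 26.1 ± 1.68 FPKM. These sums weigh mRNAs by level alone, were formed after the genes were chosen, and are given with no test.

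**Figure D4:**
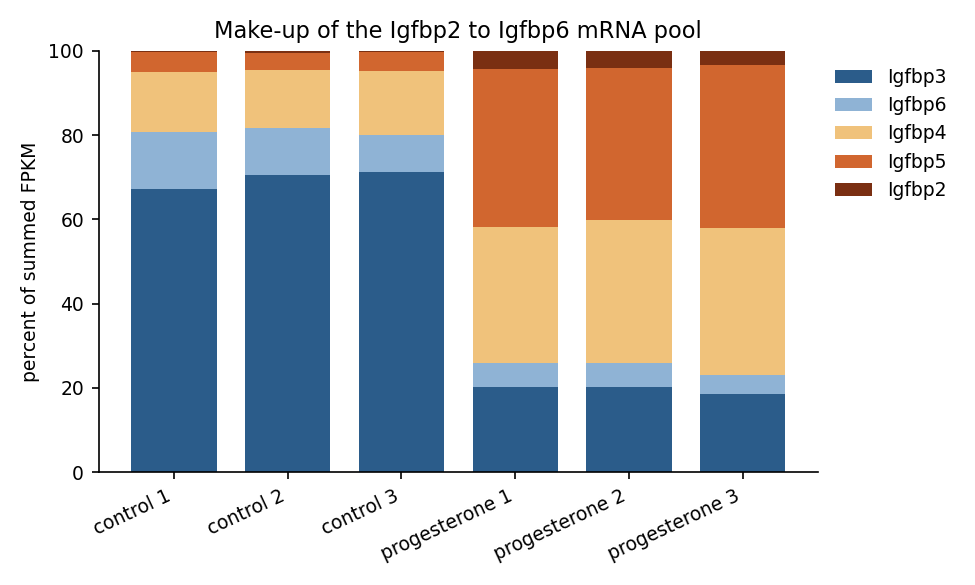
Share of each binding protein gene, in percent, in the summed FPKM of Igfbp2 to Igfbp6, with 1 bar per library. Igfbp3 takes 67.3% to 71.2% of each control bar and 18.5% to 20.1% of each progesterone bar, and Igfbp5 4.05% to 4.60% and 35.9% to 38.7%.

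Within groups, several of the genes were highest in the same library. Control replicate 3 was the highest of its group for 6 of the 10 genes and progesterone replicate 3 for 6 of the 10, and Igf1, Irs2, Igfbp3, Igfbp4 and Igfbp5 were among them in both groups. How often replicate 3 was highest over all genes tested was not counted, so these counts have no background beside them. Marker lists of other cells were mixed in which replicate was highest. Of the 10 tested fibroblast markers, 6 were highest in control replicate 3 and 4 in progesterone replicate 3; Pdgfra, Dcn, Lum and Tcf21 were highest in replicate 3 of both groups, whereas Col1a1 and Ddr2 were lowest there in both. Of the 11 smooth muscle and pericyte markers, 1 (Abcc9) was highest in replicate 3 of both groups and 4 (Acta2, Tagln, Notch3 and Mcam) were lowest there in both. Of the 11 cardiomyocyte markers, 3 (Tnni3, Ryr2 and Pln) were highest there in both and none was lowest in both. Among the 9 endothelial and the 8 macrophage and leukocyte markers, 8 and 7 were highest in control replicate 3, and 2 of each list in progesterone replicate 3.

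Markers of other cells of the heart differed between the groups in which the IGF genes differed. Of 10 tested fibroblast markers 5 rose and 3 fell. In the control and progesterone means Col1a1 was at 2550 and 2858 FPKM, Col3a1 at 1371 and 2869 FPKM and Postn at 896 and 1751 FPKM. These genes were named for their level, and the markers that fell are not among them. Over the tested fibroblast markers the log2 fold change ran from -1.15 to 1.07. Smooth muscle and pericyte markers rose in 9 of 11 and fell in 2, with a summed level of 1007 to 1282 FPKM in the controls and 2833 to 3201 FPKM with progesterone. Of 8 tested macrophage and leukocyte markers 7 rose and none fell, from 21.9 to 33.1 FPKM in sum to 122 to 136 FPKM, and the lymphocyte markers Cd3e and Cd79a had no count in any library. Lyz2, a lysozyme gene of macrophages, took the largest part of that sum, at 4.20, 4.41 and 9.12 FPKM in the controls and 88.6, 97.9 and 88.7 FPKM with progesterone. Endothelial markers (3 of 9 higher and 3 lower; 42.5 to 54.98 against 33.5 to 43.8 FPKM) and epicardial markers (3 of 8 higher and 4 lower; 63.6 to 68.8 against 72.95 to 80.3 FPKM) were low, as were those of Schwann cells (1 of 3 higher; 2.87 to 3.19 against 3.36 to 3.81 FPKM). The endothelial marker Cldn5 had no count in any library. Of the cardiomyocyte markers 4 of 11 were higher and 5 lower, none by 2-fold. The part of these cell types in the changes of the IGF genes was not tested.

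The genes whose profile over the 6 libraries lay nearest to those of the 4 genes with 2-fold changes were sought among 12834 genes with counts in every library, by the root mean square difference of log2 CPM (counts scaled to a common library total) after each gene's own mean was taken off. Nearest to Igfbp2 was Igf2, the other IGF ligand gene, at a difference of 0.10, followed by Lilra5 (0.12) and Adamtsl2 (0.14), a gene of the microfibril-associated ADAMTS-like family. For Igfbp5 they were Dkk2, a Wnt antagonist gene (0.11), Slco4a1 (0.12) and the collagen gene Col9a3 (0.14). Lilra5 and Dkk2 were low, at 0.045 and 0.291 FPKM in the control means and 0.302 and 1.92 FPKM in the progesterone means. For Igfbp3 they were Irak3 (0.06), an inhibitor of Toll-like receptor signalling, Adar (0.08), an interferon-inducible RNA-editing enzyme, and the chemokine gene Cxcl1 (0.08). For Igfbp6 they were Rgs2 (0.08), Il3ra (0.10) and Tor1b (0.10). Within a difference of 0.2 lay 8 genes for Igfbp2, 14 for Igfbp5, 73 for Igfbp3 and 190 for Igfbp6, and since the groups set most of each profile, likeness here is mainly a similar fold change.

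Of 89 other genes of the pathway, in 5 lists, 80 were tested. Of these, 20 were higher with progesterone and 41 were lower, where 31.2% and 31.8% of all genes tested were. With upper quartile scaling the split was 26 higher and 33 lower. Their log2 fold changes had a median of -0.13, against 0.00 over all genes tested. In the list of the IGF and insulin family, 2 of 7 tested genes rose and 5 fell (median -0.37). Igf2, the imprinted fetal ligand gene, was at 6.01, 6.09 and 5.81 FPKM in the controls and at 51.8, 46.8 and 50.6 FPKM with progesterone. It stayed below Igf1 in both groups, and its log2 fold change was 3.06 ± 0.05 (adjusted p = 6.98e-17). Igf2r, the receptor that clears IGF2, rose by 0.31 ± 0.04 from 152 to 188 FPKM. Insr, the insulin receptor gene, and Irs3, a further adaptor gene of rodents, fell by 0.36 and 1.20 on the log2 scale. The insulin genes Ins1 and Ins2 and the IGFBP-like gene Igfbpl1 had no count in any library, and Igfals and Insrr were too low to be tested.

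**Figure D5:**
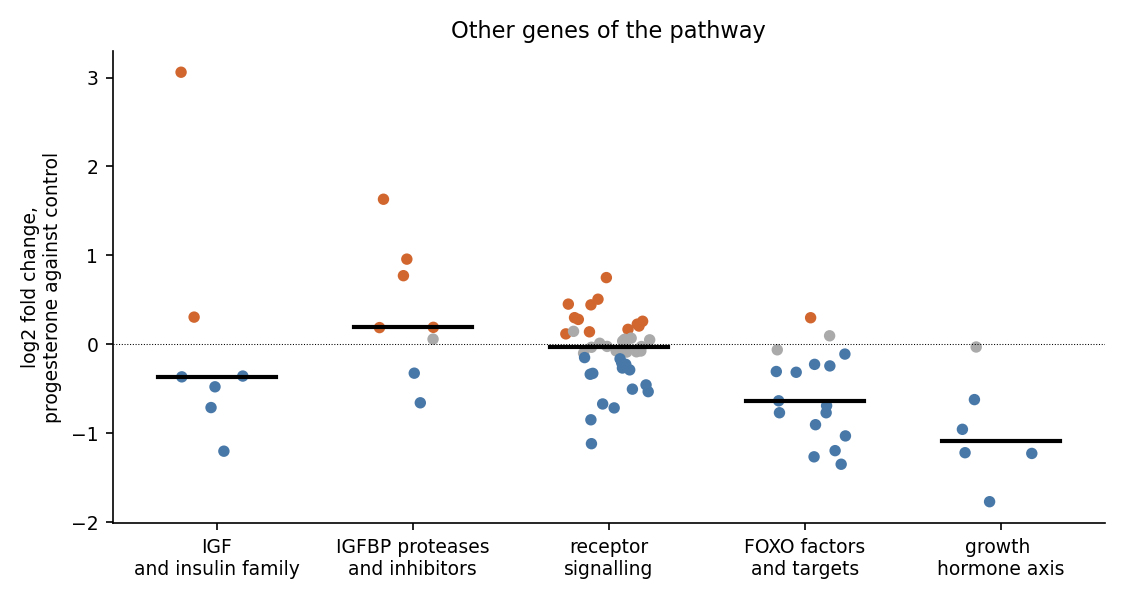
Log2 fold change, progesterone against control, of each tested gene of the 5 pathway lists (orange higher, blue lower, grey not passed), with a black bar at each list's median. The FOXO and growth hormone lists lie mostly below 0, with medians of -0.63 and -1.09, while the receptor signalling list is centred at -0.03.

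Among 8 tested proteases of the binding proteins and their inhibitors, 5 rose and 2 fell (median 0.19), where 31.2% and 31.8% of all genes tested did. Pappa, which encodes the PAPP-A protease of IGFBP4 and IGFBP5, was at 5.14, 6.08 and 7.60 FPKM in the controls and at 19.0, 18.6 and 20.6 FPKM with progesterone. The groups did not overlap, and the log2 fold change was 1.63 ± 0.15 (adjusted p = 0.00040). Stc2, which encodes an inhibitor of PAPP-A, was at 7.83, 8.23 and 6.86 FPKM in the controls and at 17.1, 10.9 and 11.1 FPKM with progesterone. Its log2 fold change of 0.77 ± 0.19 passed (adjusted p = 0.012), but not without control replicate 1 (adjusted p = 0.057) or 3 (0.068). Adam12, a membrane protease gene, rose by 0.96 ± 0.04, whereas Htra1, a secreted serine protease gene, and Adam9 fell by 0.66 and 0.32 on the log2 scale.

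Signalling genes below the receptor moved both ways. Of 42 tested, 12 rose, 15 fell and 15 did not pass (median -0.03). Of all genes tested 31.2% were higher and 31.8% lower, so these counts are close to the background of the comparison. Sh2b2, an adaptor of insulin and cytokine receptors, fell by 1.12 on the log2 scale, and the MAP kinase pathway genes Map2k1, Mapk3 and Shc1 fell by 0.85, 0.71 and 0.53. Grb10, an adaptor that inhibits the IGF1 and insulin receptors, rose by 0.44 ± 0.04. The related Grb14 passed at 0.12 ± 0.05 (adjusted p = 0.043), but not without control replicate 2 (adjusted p = 0.25) or progesterone replicates 1 (0.068), 2 (0.078) or 3 (0.12), nor with DESeq2 (0.15), and the call held in 6 of 15 alternatives.

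FOXO factors are transcription factors of metabolism and stress. Of 17 tested genes of the list of FOXO factors and their targets, 14 were lower and 1, Sesn3, was higher (median -0.63), where 31.8% of all genes tested were lower. Txnip, which restrains glucose uptake, was at 148 ± 6.14 FPKM in the controls and 64.5 ± 1.87 FPKM with progesterone (SD, n = 3). Klf15, a transcription factor that glucocorticoids also induce, fell by 1.26 on the log2 scale, Bcl6 by 0.90 and Pik3ip1, an inhibitor of PI3 kinase, by 0.77. Foxo1 itself had a log2 fold change of -0.31 ± 0.13 (adjusted p = 0.040), a call lost without control replicate 2 (adjusted p = 0.086) or 3 (0.11) or progesterone replicate 1 (0.14) or 2 (0.11), with DESeq2 (0.094) and with upper quartile scaling (0.14).

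Growth hormone signals through the receptor Ghr, the kinase Jak2 and STAT5. Of 6 tested genes of the axis 5 fell and none rose (median -1.09), where 31.8% of all genes tested were lower. Ghr was at 36.4, 37.0 and 41.3 FPKM in the controls and at 18.5, 20.3 and 20.2 FPKM with progesterone. Jak2, which interferon gamma and cytokine receptors use as well, fell by 1.77 on the log2 scale, and Stat5a and the STAT5-induced inhibitor gene Cish by 1.22 and 1.23. Socs2, another feedback inhibitor of the axis, differed by -0.03 ± 0.06 on the log2 scale (adjusted p = 0.71), and by 0.07 with upper quartile scaling and 0.02 without progesterone replicate 2.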

How the data were processed

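Gene expression was measured by RNA-seq in 3 control and 3 progesterone samples, grouped by their titles. Per the labels' protocols, mRNA was enriched before TruSeq RNA library construction. Bowtie 0.12.2 is named in the submitters' processing notes, as is mm8, which is a build of the mouse genome, while the gene identifiers are those of rat in Ensembl. No source used here gives the rat build, annotation, counter or strand setting. Raw counts and FPKM values of each gene were deposited by the authors, and the FPKM equal the counts divided by gene length and by 1 divisor per library, between 98.8% and 102% of its count total. Rows without a gene name (682) held 0.826% to 0.896% of the counts and were kept.

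The test was the quasi-likelihood F test of edgeR 4.0.16 (R 4.3.3), with TMM scaling and robust dispersions, after filterByExpr at its settings of 10 counts per library and 15 in all. P-values were adjusted by the Benjamini-Hochberg method over all genes tested, with a threshold of 0.05. Each SE is the fitted log2 fold change over the square root of its F value, and folds are back-transformed from the same fit. Alternatives were other scalings, other filters, single replicates left out, a block for the replicate number, DESeq2 1.42.0, and limma 3.58.1 on log2(FPKM + 1) and log2(FPKM + 0.1). No pair of replicates was a duplicate: chi-square over its degrees of freedom was 5.52 to 9.68 within groups.

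The members and lists were chosen with earlier results of these data known. Named besides the members are the 4 genes of each pathway list with the smallest adjusted p and a fixed set of 10 genes, up to 3 genes of highest FPKM per marker list, and the 3 nearest profiles of each gene with a 2-fold change. The markers named by replicate, Sesn3, Igf2bp1, Igf2bp3, Igfbp1, Igfals, Insrr, the insulin genes and the genomic neighbours were named after their values were seen. Pappa and Cd79a were each matched through a RefSeq synonym. Irs4, Ttn, Col1a2, Pecam1 and Itgam are not analysed here. Promoter sequences are from RefSeq (GRCr8).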

Additional observations from a re-analysis of the deposited data

How the results depend on the processing

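The 8 IGF system genes that passed, 6 higher and 2 lower, did so under all 15 alternatives, with every direction kept: of 150 values of single genes, 148 kept direction and call, and the others were the passes of Igf1r (0.16) and Irs1 (0.21) with upper quartile scaling. Over the alternatives the log2 fold change ran from 0.57 to 0.75 for Igf1, from 2.35 to 3.06 for Igfbp2, from -2.31 to -2.15 for Igfbp3, from 0.71 to 0.91 for Igfbp4, from 2.60 to 2.80 for Igfbp5 and from -1.54 to -1.34 for Igfbp6. Leaving out each library in turn gave 8 changed genes of the set each time, 54 to 59 changed pathway genes against 61, and 8686 to 9131 changed genes in all against 9497. Replicate numbers did not pair the libraries as a whole (correlations of same-numbered deviations from -0.00094 to 0.049), but some genes of the set followed them. With the replicate number as a block, the SE fell from 0.11 to 0.0393 for Igf1. It fell from 0.12 to 0.0398 for Igfbp4 and from 0.12 to 0.0425 for Igfbp5. The SE of Igfbp2 and Irs1 rose slightly, to 0.138 and 0.0664, and that of the other genes fell. With this block 8 of the set and 9508 of all genes changed. DESeq2 called 8623. Depth limits Igfbp2 most, with 44 to 48 counts in each control library.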

Other observations

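The genes of the IGF2 mRNA-binding proteins, RNA-binding proteins named for their binding of Igf2 mRNA, were lower with progesterone. Igf2bp1 was at 5.44 ± 0.144 FPKM in the controls and 4.22 ± 0.399 FPKM with progesterone, Igf2bp2 at 10.2 ± 0.888 and 6.21 ± 0.336 FPKM, and Igf2bp3 at 13.4 ± 0.852 and 9.66 ± 0.718 FPKM (SD, n = 3). Their log2 fold changes were -0.37 ± 0.11, -0.71 ± 0.07 and -0.48 ± 0.08 (SE), and all 3 calls held under the 15 alternatives. Igf2 itself had a log2 fold change of 3.06 in the same libraries.

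Igfbp4 lies 18402 bases from Top2a, a gene of chromosome separation in dividing cells on the other strand. Top2a had a log2 fold change of 1.78 ± 0.04 beside the 0.81 of Igfbp4. It was the nearest of 18 tested genes within 500 kb of Igfbp4. Of those, 5 were higher and 7 lower with progesterone, where 31.2% and 31.8% of all genes tested were. By at least 2-fold 6 of the 18 changed, where 16.5% of all genes tested did.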
